A study of Mus musculus with 288 samples.

Results

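The enzymes described here make itaconate, nitric oxide and prostaglandins in macrophages, or supply and limit those pathways. They are the 9 genes Irg1, Nos2, Gch1, Arg1, Arg2, Ptgs1, Ptgs2, Ptges and Sod2, taken by name from the 23481 genes of the count table. The rule itself uses no measured value, but the members were chosen with earlier results of these data known. The cells were macrophages grown from bone marrow of C57BL/6 mice aged 12 weeks, differentiated for 7 days in M-CSF with 10% serum. They were held for 24 h with DMSO, with 100 nM dCA or with 1 uM BRD-6989, both inhibitors of the kinase CDK8. Each pretreatment then received no stimulus or 1 of 11 stimuli, labelled LPS, MDP, MDP_LPS, Pam3cys, CpG, R848, Poly(I:C), FLA, SeV, Zymosan and TDB, and was collected at 8 times from 15 to 180 min. That gives 288 wells, 1 for each pretreatment, condition and time, and all 96 wells of a pretreatment carry 1 library index. An inhibitor and its plate of wells therefore cannot be told apart. Nothing in the labels says that wells came from separate cultures or animals. The p-values thus measure only the spread between wells of different stimuli and times, or between conditions where the 8 times were summed. The inhibitors were used at different doses and stand side by side below without a test between them. Both were compared with the same DMSO wells.

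Irg1 (named Acod1 in RefSeq) decarboxylates cis-aconitate, a tricarboxylic acid cycle intermediate, to itaconate, and is among the genes macrophages switch on after sensing bacterial products. Nos2 is the inducible nitric oxide synthase; it uses arginine and needs tetrahydrobiopterin, whose first synthetic step is catalysed by Gch1. Arg1 and Arg2 are the cytosolic and the mitochondrial arginase and draw on the same arginine. Ptgs1 and Ptgs2 are the cyclooxygenases that turn arachidonic acid into prostaglandin H, the former usually described as constitutive and the latter as inducible, and Ptges is an inducible synthase that converts that product to prostaglandin E. Sod2 is the mitochondrial superoxide dismutase, a well-known NF-kappaB target.

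Expression was read from the 3′ ends of polyadenylated transcripts with molecular identifiers (UMIs), and levels are given in CPM, the UMI of a gene per 1000000 UMI of the well or of the wells summed, without the ribosomal precursor transcript Rn45s. A well held 21810 to 70797 such UMI, so that 1 UMI in the median well stood for 25.3 CPM. The 8 times of a pretreatment and condition were summed into 36 libraries of 227325 to 449471 UMI. Rn45s took 52.7% ± 6.88 (SD, n = 96) of UMI in DMSO wells, 49.0% ± 7.04 (SD, n = 96) in dCA wells and 43.6% ± 6.75 (SD, n = 96) in BRD-6989 wells, so it moved with the pretreatment. All 9 macrophage markers looked up had UMI, and their summed level was 4250 to 5370 CPM in the 12 DMSO libraries, 4050 to 4930 in the dCA libraries and 4160 to 5420 in the BRD-6989 libraries. Markers of erythroid cells were at 0, and those of mast cells, fibroblasts, B cells, T cells and dendritic cells stayed at or below 68.0 CPM in every library. Of 6 neutrophil markers, Elane was at 0 and Mpo had 2 UMI in all, but the summed level differed between plates, at 7.66 to 52.8 CPM (median 29.7) in DMSO against 0 to 13.3 (median 1.58) in dCA and 0 to 9.15 (median 1.36) in BRD-6989. In these bulk wells, fewer cells of a type and less RNA per cell cannot be told apart.

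The members differed widely in how well they were counted. Over the 288 wells Sod2 had 1950 UMI, Irg1 1690, Ptgs2 744, Gch1 560 and Ptgs1 269, and these 5 passed the filter on low counts for the test of the inhibitors. Arg2 had 106 UMI, Arg1 78, Ptges 47 and Nos2 36, too few to enter that test, and they are given as counts. Intervals given for counts and for ratios of counts are exact 95% intervals and cover counting error only.

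The 200 bases before the RefSeq transcription start (build GRCm38.p6, written 5′ to 3′ on the gene's strand) are shown for the 4 members on which the results turn. These are Irg1 and Ptgs1, which were lower under both inhibitors, and Ptgs2 and Sod2, for which neither inhibitor's difference passed. Promoters of 6 of the 9 members matched the RefSeq table by symbol. Capitals mark a TATA box in Irg1, a C/EBP motif in Ptgs2 and a kappaB motif in Sod2.
Irg1: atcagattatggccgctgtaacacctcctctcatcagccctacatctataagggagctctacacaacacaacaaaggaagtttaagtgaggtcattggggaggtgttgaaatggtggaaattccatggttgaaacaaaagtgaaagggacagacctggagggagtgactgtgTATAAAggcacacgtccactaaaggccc
Ptgs1: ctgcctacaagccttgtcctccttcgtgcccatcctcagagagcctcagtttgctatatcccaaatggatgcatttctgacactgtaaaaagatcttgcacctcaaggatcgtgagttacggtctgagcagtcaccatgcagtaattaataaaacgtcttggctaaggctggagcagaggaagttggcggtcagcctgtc
Ptgs2: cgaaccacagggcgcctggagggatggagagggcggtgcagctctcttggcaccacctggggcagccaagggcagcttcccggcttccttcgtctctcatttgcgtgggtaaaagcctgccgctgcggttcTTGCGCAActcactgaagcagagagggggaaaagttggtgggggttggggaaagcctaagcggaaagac
Sod2: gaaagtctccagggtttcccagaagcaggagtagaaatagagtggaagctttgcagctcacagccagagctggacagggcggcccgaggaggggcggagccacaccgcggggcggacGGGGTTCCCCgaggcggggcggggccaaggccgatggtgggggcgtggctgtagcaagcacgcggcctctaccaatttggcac
These windows lie at chr14:103046812-103047011, chr2:36230226-36230425, chr1:150099831-150100030 and chr17:13007639-13007838, all on the plus strand. The table gives 1 start per gene, and that of Ptgs1 lies inside the gene's annotated span, so its window precedes an internal start. Each was searched on both strands for 8 motifs. The kappaB motif and the ISRE of interferon genes were joined by a C/EBP motif (TTGCNNAA) and by the AP-1 motif of Fos and Jun proteins (TGANTCA). The core of the cAMP response element (TGACG), the palindromic E-box bound by basic helix-loop-helix proteins (CACGTG), the TATA box near the start (TATAAA) and the GC box bound by Sp proteins (GGGCGG) completed the search. The Irg1 window held only the TATA box, 28 bases before the start, a motif found in 9.96% of 32851 promoters of the same length. The Ptgs1 window held none of the 8. The Ptgs2 window held the C/EBP motif (7.47% of promoters) 69 bases before the start and a GC box (31.0% of promoters), while that of Sod2 held the kappaB motif (6.07% of promoters) 83 bases before the start and 4 GC boxes, none of which overlapped it. A kappaB motif, 10 bases before the start, and a CRE core (15.7% of promoters) were also found in the Gch1 window. A match is a run of letters, not a measured binding site.

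Nos2, Arg1, Arg2 and Ptges were too sparse for the test against unstimulated wells, and Ptgs2 had 0 UMI in the unstimulated DMSO wells. Of the members tested, Irg1 (chr14:103047012-103056573) was the only one that passed for any stimulus. In DMSO wells collected at 60 min and later, the 5 LPS wells measured 203, 710.0, 594, 987 and 1660 CPM from 60 to 180 min. The 5 MDP_LPS wells measured 253, 409, 1021, 1462 and 1017 CPM. The unstimulated wells of the same times measured 28.5, 35.2, 0, 216 and 0 CPM. All 5 MDP_LPS wells and the LPS wells from 90 min on lay above every unstimulated well. The LPS well of 60 min lay below only the unstimulated well of 150 min, which held 8 of the 12 Irg1 UMI of the 8 unstimulated DMSO wells. Against the unstimulated wells, with time as a factor, edgeR's quasi-likelihood test gave log2 fold changes of 3.80 ± 0.73 (SE, adjusted p = 0.0002475) for LPS and 3.90 ± 0.73 (adjusted p = 0.0001308) for MDP_LPS. Poly(I:C) raised Irg1 by 3.74 ± 0.73 (adjusted p = 0.0005991) and Zymosan by 3.49 ± 0.73 (adjusted p = 0.001525) in the same edgeR fit. These 4 were the only stimuli of the 11 for which Irg1 passed the threshold, in comparisons where 1.02% (LPS), 1.11% (MDP_LPS), 0.562% (Poly(I:C)) and 0.58% (Zymosan) of 5515 genes did so. Of the other 7 stimuli, which called no member, R848 changed 0.544% of genes, Pam3cys 0.49%, CpG and FLA 0.254% each, MDP 0.109%, TDB 0.0907% and SeV 0.0544%.

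The order of Irg1 in the 5 late DMSO wells ran from MDP_LPS at 832 ± 496 CPM (SD, n = 5) through LPS (831 ± 543), Poly(I:C) (782 ± 508) and Zymosan (674 ± 445) to R848 (302 ± 249), MDP (279 ± 259), FLA (252 ± 148), Pam3cys (247 ± 144) and CpG (202 ± 211). SeV at 80.5 ± 58.6, TDB at 63.9 ± 80.8 and no stimulus at 55.9 ± 90.9 CPM closed the order. No neighbours in this order differed by more than the larger of their SDs, which contain the rise with time. R848, MDP, FLA, Pam3cys and CpG had 3.87 to 5.18 times the pooled unstimulated level, with intervals above 1, but did not pass the edgeR test (adjusted p from 0.2246 to 0.5853). Over the mean of the 11 stimuli the change was 2.43 ± 0.64 (edgeR, adjusted p = 0.04481; 0.562% of genes called). That call was lost without the wells of 90, 120 or 180 min, when values ran from 1.93 to 2.45 (adjusted p = 0.09973 to 0.3155), without time in the fit (2.37, adjusted p = 0.1217), with read counts (2.10, adjusted p = 0.1983), with the stimuli as 1 group (2.94, adjusted p = 0.2736) and in a fit of all 180 late wells (2.49, adjusted p = 0.06321). The contrast of the 4 stimuli LPS, MDP_LPS, Poly(I:C) and SeV with CpG, FLA, Pam3cys and R848 gave 0.88 ± 0.33 for Irg1 (edgeR, adjusted p = 0.3092), and no tested member passed there, where 0.671% of genes did.

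Irg1 climbed through the whole time course. The 11 stimulated DMSO wells pooled at each time gave 18.4 CPM at 15 min, 50.2 at 30 min, 75.2 at 45 min, 104.5 at 60 min, 292 at 90 min, 396 at 120 min, 635 at 150 min and 679 at 180 min. Each step was upward, and the level at 180 min lay above every earlier one but that of 150 min beyond counting error. Across the 88 stimulated DMSO wells, with the stimulus as a block, Irg1 rose by 1.53 ± 0.15 log2 units per hour (edgeR, adjusted p = 1.599e-15). Sod2 rose by 0.61 ± 0.15 per hour (edgeR, adjusted p = 0.006022). They were 2 of the 5 members tested, where 3.75% of 5677 genes passed.

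**Figure D1:**
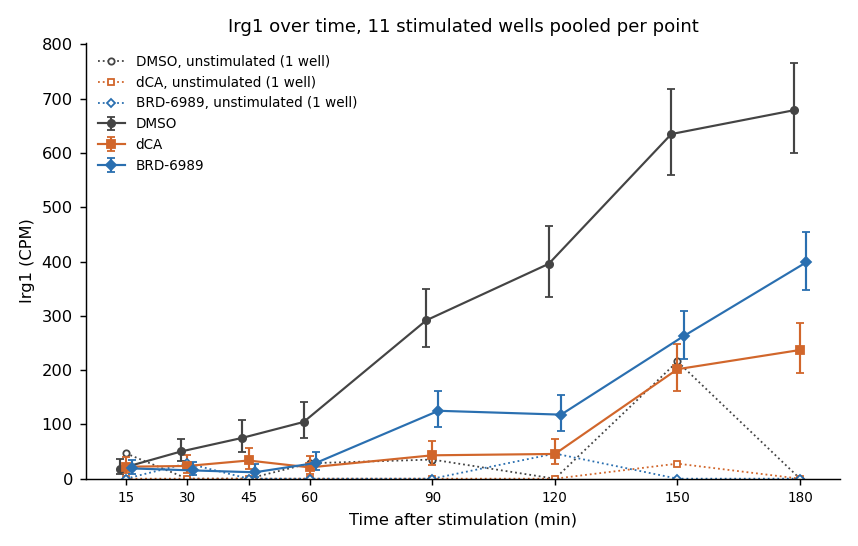
Irg1 level (y axis, CPM) against time after stimulation (x axis, min); filled symbols and solid lines pool 11 stimulated wells of a pretreatment, bars are exact 95% counting intervals, and open symbols with dotted lines are single unstimulated wells. DMSO reached 679 CPM at 180 min, BRD-6989 398.5 and dCA 237, and the unstimulated DMSO well of 150 min stood at 216.

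Irg1 was lower under both CDK8 inhibitors. Its level averaged 248.5 ± 183 CPM (SD, n = 12) over the 12 DMSO libraries, 74.3 ± 73.3 (SD, n = 12) over those with dCA and 119 ± 137 (SD, n = 12) over those with BRD-6989. In each of the 12 conditions the library of either inhibitor lay below the DMSO library of the same condition, although the ranges overlap because the conditions differ: 43.2 (no stimulus) to 532 (LPS) in DMSO, 3.34 to 234 in dCA and 3.05 to 352 in BRD-6989. Among the 96 pairs of wells with the same stimulus and time, dCA was below DMSO in 68 and above it in 12, with both at 0 in 16. BRD-6989 was below DMSO in 71 pairs, above it in 14 and level at 0 in 11. With the condition as a block, the log2 fold change was -1.85 ± 0.24 for dCA (edgeR's quasi-likelihood test, adjusted p = 1.979e-08) and -1.38 ± 0.22 for BRD-6989 (adjusted p = 2.689e-06).

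Irg1 and Ptgs1 were the 2 of 5 tested members called with dCA and, again, with BRD-6989, both lower. Of all 5691 genes tested, 17.9% were called with dCA, 8.12% lower, and 21% with BRD-6989, 10.5% lower. Of the dCA calls 54.8% were higher, or 41.2% without TMM scaling, and both members stayed lower under that scaling. The dCA calls of Irg1 and Ptgs1 passed under every alternative that tested them. The BRD-6989 call of Irg1 did not pass without the condition block (-1.02, adjusted p = 0.1543), and neither it (-1.22, adjusted p = 0.2342) nor that of Ptgs1 (-2.72, adjusted p = 0.2919) passed with a covariate for Rn45s, whose share differed between the plates. The neutrophil markers S100a8 (45, 6 and 4 UMI with DMSO, dCA and BRD-6989) and S100a9 (51, 5 and 7 UMI) fell on the same plates, and their part in the Irg1 and Ptgs1 results was not tested.

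**Figure D2:**
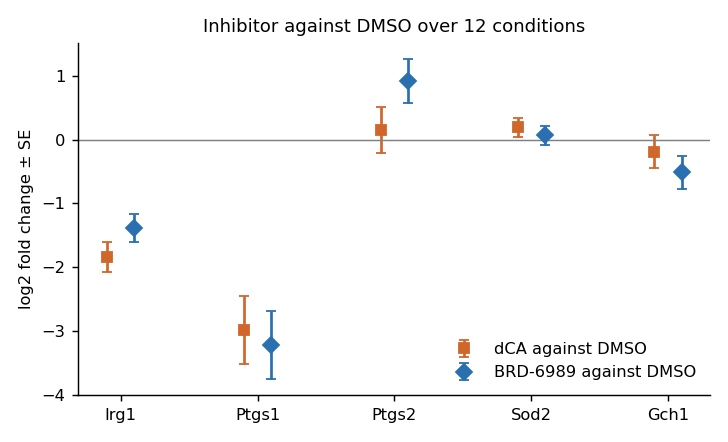
Log2 fold change against DMSO (y axis) with its SE for the 5 members tested over 12 conditions (x axis), from edgeR with the condition as a block. Irg1 (-1.85 and -1.38) and Ptgs1 (-2.99 and -3.22) lie below 0 for both inhibitors, and Ptgs2 with BRD-6989 lies at 0.92 without passing the threshold.

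The Irg1 ratio of inhibitor to DMSO took different values with different stimuli. With Poly(I:C) the 8 times together gave 458 CPM in DMSO (178 UMI), 38.0 in dCA (13 UMI) and 75.6 in BRD-6989 (34 UMI), ratios to DMSO of 0.083 (interval 0.0433 to 0.146) and 0.165 (0.111 to 0.239). The 4 DMSO wells with Poly(I:C) at 90 min and later measured 600.3, 1093, 906 and 1308 CPM. The matching dCA wells measured 0, 0, 23.0 and 169, and those with BRD-6989 measured 0, 175, 269.7 and 149.8, so that each DMSO well lay above all 8 wells of the inhibitors. With MDP, dCA held 8 UMI and BRD-6989 only 1 against 57 in DMSO, ratios of 0.137 (0.0563 to 0.288) and 0.0148 (0.000369 to 0.086).

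With LPS the ratios were nearer to 1. Its 5 late wells read 65.1, 0, 28.5, 528 and 678 CPM in dCA and 170.1, 285, 237, 787 and 859 in BRD-6989, against the 203 to 1660 of DMSO. At every time the dCA and BRD-6989 wells lay below the DMSO well. Over the 8 times the ratio to DMSO was 0.363 (0.261 to 0.499) for dCA and 0.605 (0.469 to 0.779) for BRD-6989. The difference in inhibitor effect between Poly(I:C) and LPS, a contrast chosen after these values were seen, did not pass (edgeR, adjusted p = 0.6344 for dCA and 0.9248 for BRD-6989; 0% of genes called). With MDP_LPS these ratios were 0.459 (0.342 to 0.611) and 0.689 (0.545 to 0.871), and with Zymosan 0.319 (0.22 to 0.454) and 0.806 (0.618 to 1.05). Counting intervals lay below 1 in 10 of 12 conditions for each inhibitor, the exceptions being SeV and TDB for dCA and SeV and Zymosan for BRD-6989. With the largest well of each condition left out, they did so in 10 for dCA and 9 for BRD-6989. SeV gave 48.4 CPM in DMSO, 47.7 with dCA and 38.3 with BRD-6989, from 14 or 15 UMI each; without the largest well the SeV ratios were 0.497 (0.153 to 1.43) and 0.214 (0.0388 to 0.794). Without a stimulus there were 12 UMI in DMSO, 1 with dCA and 3 with BRD-6989, and without the wells of 150 min 4, 0 and 3.

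**Figure D3:**
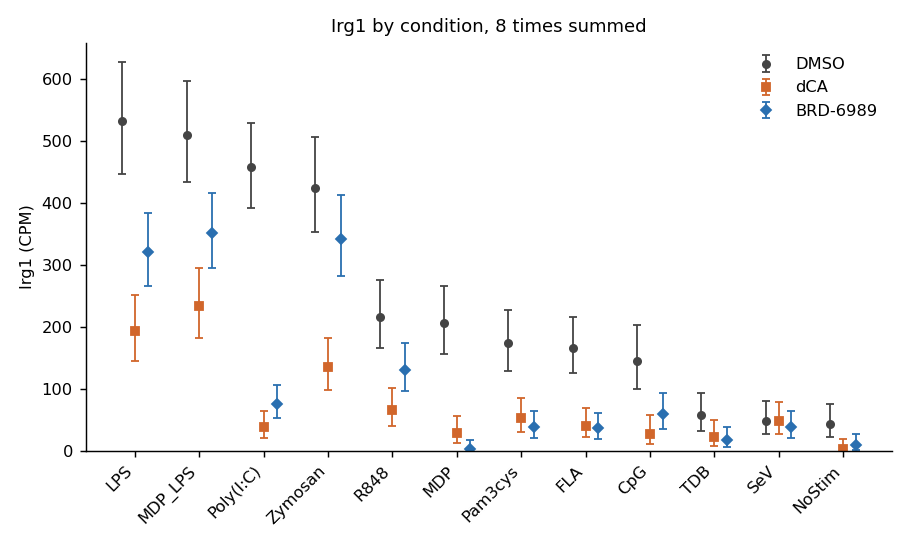
Irg1 level (y axis, CPM) in each condition (x axis, ordered by the DMSO level) with the 8 times summed; symbols are pretreatments and bars exact 95% counting intervals. The 3 symbols of SeV overlap, while those of Poly(I:C) run from 458 in DMSO to 38.0 in dCA.

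Stimulation still raised Irg1 in the presence of either inhibitor. Within the dCA plate LPS raised it by 4.59 ± 1.26 log2 units over unstimulated wells (SE; edgeR, adjusted p = 0.03637; 1.15% of genes called), MDP_LPS by 5.46 ± 1.25 (adjusted p = 0.004498; 1.27%) and Zymosan by 4.66 ± 1.25 (adjusted p = 0.04155; 0.868%). Within the BRD-6989 plate the edgeR calls were LPS (5.31 ± 0.95, adjusted p = 4.72e-05; 1.3% of genes called), MDP_LPS (5.13 ± 0.95, adjusted p = 8.265e-05; 1.39%), R848 (3.70 ± 1.00, adjusted p = 0.03994; 0.924%) and Zymosan (5.05 ± 0.96, adjusted p = 0.0001801; 1.09%). Poly(I:C) gave 2.28 ± 1.31 in dCA (adjusted p = 0.699; 0.388% of genes called) and 3.24 ± 1.00 in BRD-6989 (adjusted p = 0.1841; 0.308%). The mean over the 11 stimuli passed for Irg1 on neither plate (2.98 ± 1.13, adjusted p = 0.3582, and 2.81 ± 0.92, adjusted p = 0.2239, by edgeR), where 0.517% and 0.503% of genes did. On the BRD-6989 plate that mean passed under 1 of 13 alternatives. The folds on these plates rest on 1 Irg1 UMI in the 5 late unstimulated wells of dCA and 2 in those of BRD-6989, against 10 in DMSO. In counts the LPS ratio was 55.9 (9.6 to 2250) with dCA and 52.5 (14.2 to 439) with BRD-6989. The test of whether an inhibitor changed the mean response to the 11 stimuli gave 0.46 ± 0.83 for dCA and 0.27 ± 0.78 for BRD-6989 (edgeR, adjusted p = 1 for both). No gene of 5771 passed that test for either inhibitor (0% called); 333 and 259 had an unadjusted p under 0.05, and without the filter on low counts 1 gene passed for BRD-6989.

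The pooled time courses of the inhibitor plates were as follows. The stimulated wells of dCA stayed between 20.8 and 45.6 CPM from 15 to 120 min, then stood at 202 and 237 at 150 and 180 min. Those of BRD-6989 stayed between 11.8 and 29.0 up to 60 min and measured 125, 118, 263 and 398.5 CPM from 90 to 180 min. By comparison, DMSO had stood at 292 at 90 min. No test compared the shapes of these curves.

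Among the genes of nitric oxide synthesis, Nos2 (chr11:78920787-78960226) was barely detected within 180 min. It had UMI in 11 of 288 wells and none in any unstimulated well; 14 of its 36 UMI, from 84 reads, came from the single DMSO well with CpG at 15 min. The remaining 22 were spread over 8 DMSO, 7 dCA and 7 BRD-6989 UMI, so at this depth no difference was detectable. Over the unstimulated wells of a plate, a floor of 3 counts would be 10.8 CPM in DMSO, 10.0 with dCA and 8.98 with BRD-6989.

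Gch1, the entry enzyme of tetrahydrobiopterin synthesis (chr14:47153895-47189413), was present in 165 wells. Its level was 59.1 ± 30 CPM over the 12 DMSO libraries, 48.2 ± 18.9 over those of dCA and 39.5 ± 16.6 over those of BRD-6989 (SD, n = 12 each). It was lower than DMSO in 7 of 12 conditions with dCA and in 9 with BRD-6989, and the ranges overlapped throughout (25.8 to 123.5, 15.9 to 79.0 and 15.6 to 74.2). Neither difference passed the edgeR test (-0.19 ± 0.25, adjusted p = 0.6998 for dCA; -0.51 ± 0.25, adjusted p = 0.1542 for BRD-6989). The largest level was that of DMSO with Poly(I:C), at 123.5 CPM against 38.0 with dCA and 53.4 with BRD-6989. There 23 of the 48 UMI came from the well of 150 min, where Gch1 reached 521 CPM, and without that well the level was 72.6; the other late wells measured 169, 22.2, 262 and 74.0. Pooled over stimuli, Gch1 in DMSO went from 32.2 CPM at 15 min to 121.5 at 150 min and 65.9 at 180 min, a slope of 0.64 ± 0.23 per hour that did not pass (edgeR, adjusted p = 0.1198), though it did with DESeq2 (0.75, adjusted p = 0.02091), with a covariate for Rn45s (0.84, adjusted p = 0.03505) and without TDB (0.85, adjusted p = 0.02021).

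The arginases were sparse in every condition. Arg1 (chr10:24915207-24927470), the arginase of alternatively activated macrophages, had 16 UMI in DMSO, 23 with dCA and 39 with BRD-6989, which is 4.52, 6.39 and 9.01 CPM. The ratio to DMSO was 1.41 (0.715 to 2.86) for dCA and 1.99 (1.09 to 3.82) for BRD-6989, or 1.74 (0.933 to 3.37) without R848 at 120 min, the largest well. Of the 39 UMI with BRD-6989, 11 lay in the SeV wells and 8 in the R848 wells. Arg2 (chr12:79130788-79156301) had 29, 35 and 42 UMI, with ratios of 1.19 (0.705 to 2.01) and 1.18 (0.721 to 1.97). Its UMI were spread thinly, with at most 5 in any well, over 23 DMSO, 24 dCA and 23 BRD-6989 wells. Neither arginase was tested by edgeR.

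Of the cyclooxygenases, Ptgs1 fell with both inhibitors and Ptgs2 passed the test with neither. Ptgs1 (chr2:36216742-36258593) averaged 60.5 ± 28.4 CPM (SD, n = 12) in the DMSO libraries, 8.49 ± 12.3 (SD, n = 12) with dCA and 6.32 ± 6.93 (SD, n = 12) with BRD-6989. It was at 0 in 7 of 12 dCA libraries and in 2 of 12 BRD-6989 libraries, while no DMSO library lay below 20.4 CPM. Of the dCA libraries 9 and of the BRD-6989 libraries 11 lay below every DMSO library; with dCA the FLA (34.5), MDP (24.6) and CpG (23.9) libraries overlapped, and with BRD-6989 that of Pam3cys (22.0). The log2 fold change was -2.99 ± 0.53 for dCA (edgeR, adjusted p = 1.947e-05) and -3.22 ± 0.53 for BRD-6989 (adjusted p = 3.826e-06). In counts, 211 UMI in DMSO stood against 30 with dCA and 28 with BRD-6989, 7.15 times (4.86 to 10.9) and 9.21 times (6.19 to 14.2) as much per UMI sequenced. Of the 30 dCA UMI, 10 came from 20 reads of the FLA well at 15 min.

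Counts of Ptgs1 also differed without a stimulus, although the test did not pass. The 8 unstimulated DMSO wells measured 46.7, 61.2, 34.9, 114, 140.9, 289, 27.0 and 26.1 CPM from 15 to 180 min. All 8 dCA wells were at 0, and with BRD-6989 the well of 45 min held 1 UMI and the other 7 none. Every DMSO well thus had Ptgs1. Summed over times, the 25 UMI of DMSO stood 8.99-fold over a floor of 3 counts for the dCA group. That value leaves out the counting error of the 25 UMI. The 25 UMI of DMSO were 30.1 times (4.92 to 1230) the 1 UMI of BRD-6989 per UMI sequenced. The edgeR test on these 24 wells, whose fitted folds are no measure with a group at 0, did not pass for dCA (adjusted p = 0.05183) or BRD-6989 (adjusted p = 0.188); 0.908% and 1.06% of 5834 genes did. With dCA it passed without time as a block (adjusted p = 0.017), with a covariate for Rn45s (0.03287) and with Rn45s kept (0.04985), all by edgeR. The change of Ptgs1 with stimulation in DMSO did not pass (-1.18 ± 0.76, edgeR, adjusted p = 0.7236). In counts, the late stimulated DMSO wells gave 0.44 times (0.27 to 0.751) the late unstimulated level. Of the 20 late unstimulated UMI, 10 came from the well of 120 min. The intervals of CpG, FLA, LPS, MDP and Poly(I:C) included 1, and those of the other stimuli lay below it. The pooled stimulated level of Ptgs1 was 58.1 to 87.5 CPM up to 120 min and 22.3 and 25.3 at 150 and 180 min (slope -0.48 ± 0.23 per hour, edgeR, adjusted p = 0.3239).

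Ptgs2 (chr1:150100031-150108234), the inducible cyclooxygenase, was not called with either inhibitor. Its level was 46.2 ± 38.7 CPM over the DMSO libraries, 52.4 ± 48.5 over those of dCA and 91.7 ± 80.8 over those of BRD-6989 (SD, n = 12 each). Higher than DMSO were 6 of 12 conditions with dCA and 9 of 12 with BRD-6989, with overlapping ranges. The edgeR test gave 0.15 ± 0.37 (SE) for dCA (adjusted p = 0.8473) and 0.92 ± 0.35 for BRD-6989 (adjusted p = 0.05168). The BRD-6989 difference, just outside the threshold, passed when MDP (1.15, adjusted p = 0.01088), SeV (1.06, adjusted p = 0.03329) or TDB (1.17, adjusted p = 0.01155) was left out, and without the filter on low counts (0.93, adjusted p = 0.008398).

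By condition, Ptgs2 in DMSO was highest with Zymosan (126.9 CPM, 37 UMI), TDB (85.9, or 35.5 without the well of 120 min), MDP_LPS (81.3) and LPS (61.3), and it had 0 UMI in all 8 unstimulated wells. A fold over unstimulated DMSO wells could therefore not be fitted. Folds over a floor of 3 counts are given with the exact 95% lower limit of the ratio. Late DMSO wells stood 10.1-fold over that floor with Zymosan (31 UMI, lower limit 7.73), 6.6-fold with MDP_LPS (4.93) and 6.1-fold with LPS (4.41). TDB gave 7.37-fold (lower limit 5.51) from 22 UMI, 15 of them in the well of 120 min, and Poly(I:C) held 1 UMI. Over the 11 stimuli, 132 late UMI stood against 0, 3.87-fold over the floor (lower limit 3.1). Without a stimulus dCA held 1 Ptgs2 UMI and BRD-6989 13 in 6 of 8 wells. The 13 UMI stood 3.6-fold over the floor of 3 counts for the DMSO group, leaving out their own counting error. With BRD-6989 the LPS level was 210.0 CPM, 3.43 times that of DMSO (1.98 to 6.3), and the MDP_LPS level 220.3, 2.71 times (1.72 to 4.41). R848 gave 3 UMI in DMSO, 34 with dCA and 41 with BRD-6989. The 5 late R848 wells were all at 0 in DMSO, while those of dCA measured 0, 463, 22.5, 52.3 and 89.8 and those of BRD-6989 measured 0, 354, 75.4, 122 and 149.6 CPM. On both inhibitor plates the highest of these was the well of 90 min. TDB gave 24 UMI in DMSO, 12 with dCA and 7 with BRD-6989 (ratio 0.243, 0.0883 to 0.58, for BRD-6989), but 15 of the 24 came from the DMSO well of 120 min, and without that time the ratio was 0.653 (0.207 to 1.97). MDP gave 16, 4 and 4 UMI, of which 11 came from the DMSO well of 180 min; without it the BRD-6989 ratio went from 0.211 to 0.697 (0.138 to 3.24). Without their largest well the R848 ratios went from 10.9 to 5.37 (1.55 to 28.6) with dCA and from 11.1 to 6.9 (2.11 to 35.6) with BRD-6989, that of MDP_LPS with BRD-6989 went from 2.71 to 1.78 (1.06 to 3.08) and that with dCA from 1.91 to 0.894 (0.458 to 1.73). Over the 12 conditions the interval of the BRD-6989 ratio lay above 1 in 7 and below 1 in 2; for dCA these counts were 3 and 1. With the largest well of each condition left out, they were 5 and 0 for BRD-6989 and 1 and 2 for dCA.

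**Figure D4:**
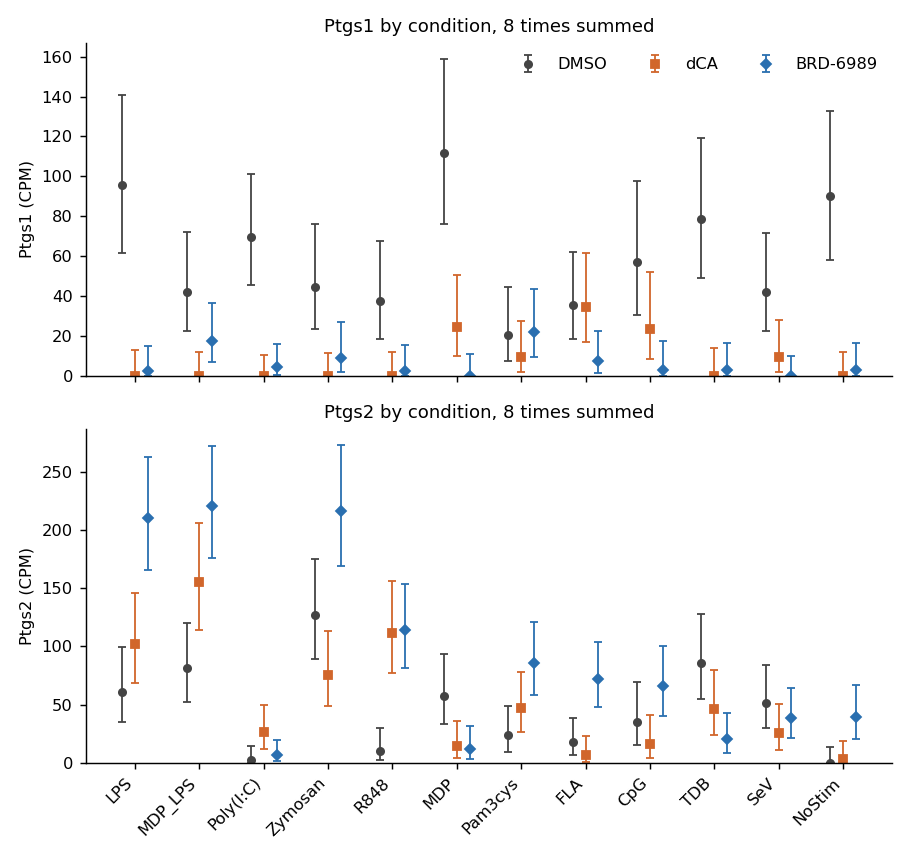
Ptgs1 (upper panel) and Ptgs2 (lower panel) levels (y axes, CPM) by condition (x axis, in the order of Irg1 in DMSO) with the 8 times summed; bars are exact 95% counting intervals. Ptgs1 is at 0 in 7 dCA libraries and below every DMSO library in 11 BRD-6989 libraries, while Ptgs2 with BRD-6989 reaches 220.3 with MDP_LPS.

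Ptgs2 was also followed over time. The 11 stimulated wells pooled at 180 min gave 88.7 CPM in DMSO (interval 61.7 to 123), 160 in dCA (124 to 202) and 234 in BRD-6989 (196 to 277). At 150 min they gave 49.6, 81.6 and 153.5, and at 120 min 119, 32.2 and 71.3 CPM. Without TDB, whose DMSO well held 15 of the 43 DMSO UMI at 120 min, these last were 83.5, 34.4 and 77.1. In DMSO the slope of Ptgs2 was 0.71 ± 0.25 per hour (edgeR, adjusted p = 0.1056), and it passed without the stimulus as a block (0.85, adjusted p = 0.03167) and without R848 (0.83, adjusted p = 0.04533). Ptges (chr2:30889471-30931020), the prostaglandin E synthase downstream, had 10 UMI in DMSO, 16 with dCA and 21 with BRD-6989, with ratios of 1.57 (0.672 to 3.88) and 1.72 (0.774 to 4.09). Of the 10 DMSO UMI, 6 came from the R848 well of 180 min, and without R848 at that time the ratios were 3.95 (1.28 to 16.2) and 3.9 (1.29 to 15.7). All of its UMI on the inhibitor plates came from wells of 90 min and later, and 15 of its 47 UMI came from Zymosan wells.

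Sod2 (chr17:13007839-13018119) was present in 263 wells, and neither inhibitor's difference passed. It averaged 162 ± 50.4 CPM in the DMSO libraries, 180.1 ± 66.8 with dCA and 169.9 ± 69.3 with BRD-6989 (SD, n = 12 each), and the ranges overlapped (95.2 to 273, 73.4 to 270.5 and 57.4 to 311). The log2 differences were 0.19 ± 0.15 and 0.07 ± 0.15 (SE; edgeR, adjusted p = 0.4421 and 0.8076). On all 3 plates the last pooled value lay above the first: pooled DMSO wells with a stimulus went from 103.5 CPM at 15 min to 271 at 180 min, those with dCA climbed from 90.4 to 353, and BRD-6989 wells reached 283 after 69.9. The slope tested in DMSO lost its call when reads replaced UMI (0.59, adjusted p = 0.09918). Among late DMSO wells MDP_LPS was highest, with 454.5, 495, 176, 410.5 and 153 CPM, and the unstimulated wells lowest, with 114, 246.5, 28.9, 54.0 and 26.1. They overlap, and the mean of the stimuli over no stimulus was 1.12 ± 0.64 (edgeR, adjusted p = 0.6764). In counts, the late stimulated DMSO wells together gave 2.43 times (1.45 to 4.38) the late unstimulated level, and MDP_LPS 4.08 times (2.31 to 7.68). The intervals of MDP, Poly(I:C) and R848 included 1, and those of the other stimuli lay above it.

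**Figure D5:**
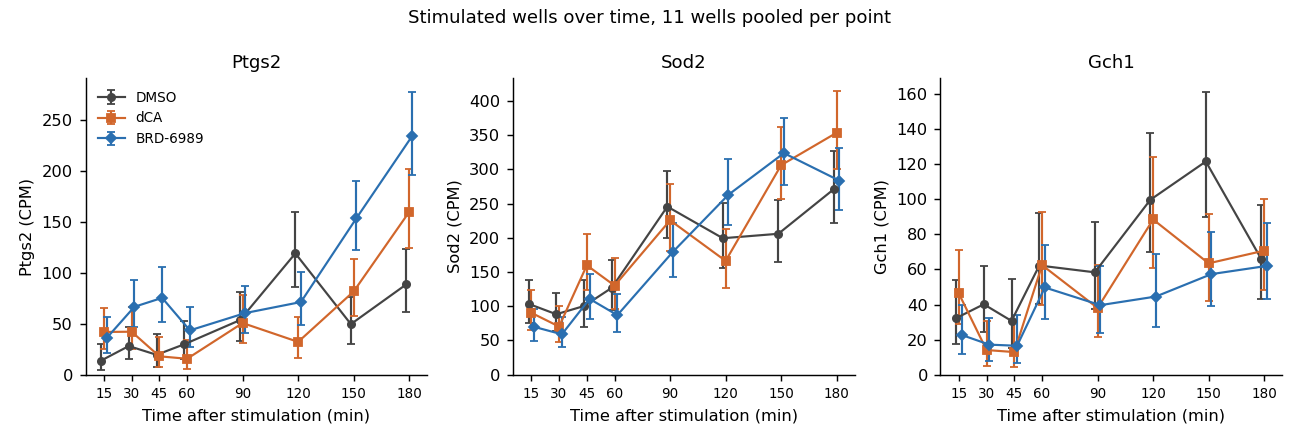
Ptgs2, Sod2 and Gch1 levels (y axes, CPM) against time after stimulation (x axes, min), 11 stimulated wells pooled per point with exact 95% counting intervals. Sod2 at 180 min lies above its 15 min value on the 3 plates, Ptgs2 at 180 min runs from 88.7 in DMSO to 234 in BRD-6989, and Gch1 in DMSO peaks at 121.5 at 150 min.

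The genes whose levels ran most like 3 members with a mean of at least 50 CPM were found over the 36 libraries by Pearson's r of log2(level + 1), among 3573 genes at that level. For Irg1 these were Srgn (r = 0.897), Cdkn1a (0.878), H3f3b (0.855), Ccl3 (0.842) and Slc2a6 (0.832). For Ptgs2 they were Clic4 (0.721), Ccrn4l (0.681), Cd69 (0.672), Ccl2 (0.66) and Cxcl2 (0.654), and for Sod2 Tnfrsf1b (0.756), Pde4b (0.736), Nfkbiz (0.735), Cxcl1 (0.731) and Nfkbia (0.719). The 36 points share 3 plates and 12 stimuli, so these values describe likeness only. Irg1 and Ptgs2 correlated at 0.416 with each other and Irg1 and Sod2 at 0.369.

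Over the 12 conditions, called genes were counted in gene lists around the members. Of 22 tested genes of the tricarboxylic acid cycle and its carriers, 1 was higher and none lower with dCA (median log2 change 0.22, against -0.008 over all genes), and 3 were higher and 1 lower with BRD-6989 (median 0.19, against 0.004). These compare with 9.82% of genes higher and 8.12% lower for dCA and 10.5% each way for BRD-6989. Acly, which cleaves citrate in the cytosol, rose with both, from 116.5 ± 44.0 CPM (SD, n = 12) to 153.5 ± 46.6 with dCA (0.48 ± 0.16, adjusted p = 0.024) and 152 ± 39.6 with BRD-6989 (0.42 ± 0.15, adjusted p = 0.04075). Idh2, the mitochondrial isocitrate dehydrogenase, rose with BRD-6989 from 16.8 ± 7.87 to 42.2 ± 20.9 (1.33 ± 0.34, adjusted p = 0.002524). Sdhc, a membrane subunit of succinate dehydrogenase, rose by 0.54 ± 0.19 (adjusted p = 0.03465), and Ogdh of the oxoglutarate dehydrogenase complex fell by 0.34 on the log2 scale (adjusted p = 0.0431). All are from edgeR.

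Of 13 tested genes of arginine, polyamine and tetrahydrobiopterin metabolism, 3 were higher and 1 lower with dCA, and 2 higher and 1 lower with BRD-6989 (medians 0.11 and 0.34), beside 9.82% of all genes higher and 8.12% lower with dCA and 10.5% each way with BRD-6989. All of those called act in arginine uptake or in polyamine metabolism, and none makes nitric oxide or tetrahydrobiopterin. Odc1, which makes putrescine from ornithine, was 57.1 ± 29.5 CPM in DMSO, 84.5 ± 33.8 with dCA and 93.2 ± 38.2 with BRD-6989 (edgeR, adjusted p = 0.02926 and 0.006322). Azin1, which protects Odc1 from degradation, rose by 0.52 ± 0.14 and 0.43 ± 0.14. The arginine carrier Slc7a1 rose with dCA by 0.80 ± 0.28 (edgeR, adjusted p = 0.03625). Sat1, which acetylates polyamines, was 356 ± 64.5 in DMSO, 192 ± 48.5 with dCA and 201 ± 48.3 with BRD-6989 (edgeR, adjusted p = 2.633e-06 and 2.486e-06).

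A further list held prostaglandin and leukotriene enzymes, receptors and carriers outside the members. Of its 12 tested genes, none was higher with either inhibitor. With dCA 3 were lower (median -0.23) and with BRD-6989 1 (median -0.025), against the 8.12% and 10.5% of all genes that were lower. Pla2g15, a lysosomal phospholipase, was 60.4 ± 21.5 CPM in DMSO, 23.6 ± 13.3 with dCA and 33.9 ± 9.39 with BRD-6989 (edgeR, adjusted p = 0.0008422 and 0.03939). Ltc4s, the leukotriene C synthase, fell from 72.9 ± 27.1 to 42.6 ± 36.5 with dCA (edgeR, adjusted p = 0.0171). Alox5ap, which presents arachidonic acid to 5-lipoxygenase, fell from 179 ± 51.1 to 120.7 ± 39.0 with dCA (edgeR, adjusted p = 0.02929).

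Of 19 tested genes that make or remove superoxide and peroxide, 3 were higher and 4 lower with each inhibitor (medians 0.016 and -0.015), beside the same shares of all genes. Among the lower genes was Cybb, the catalytic subunit of the phagocyte NADPH oxidase, at 692 ± 94.3 CPM in DMSO, 361 ± 131 with dCA and 356 ± 114 with BRD-6989 (edgeR, adjusted p = 6.706e-10 and 1.142e-10). Peroxide-removing enzymes were among the higher genes, with Prdx1 rising by 0.33 ± 0.06 with dCA and 0.65 ± 0.06 with BRD-6989, Gpx1 by 0.32 ± 0.05 and 0.20 ± 0.05, and Cat with dCA by 0.63 ± 0.22. Of 6 tested genes of alternative activation, a state often described beside Arg1, 1 was higher and 3 were lower with each inhibitor (medians -0.20 and -0.72), beside the same shares. Mrc1, the mannose receptor, rose by 0.30 ± 0.04 and 0.43 ± 0.04, whereas the lectin Clec10a was 75.7 ± 24.4 CPM in DMSO, 12.9 ± 9.49 with dCA and 10.9 ± 10.8 with BRD-6989 (edgeR, adjusted p = 6.603e-07 and 2.913e-08). The receptor chain Il4ra was 174 ± 86.7, 92.0 ± 29.7 and 64.1 ± 24.0 (edgeR, adjusted p = 0.001647 and 1.61e-07).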

How the data were processed

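The authors deposited a table of raw counts of unique molecular identifiers (UMI counts) per gene and well, with a matching table of read counts. Per the labels' protocols, polyadenylated RNA was captured on beads and read by 3′ digital gene expression; per the submitters' processing notes, BWA, edgeR and mm10 were named, with no version or setting. Of the 23481 genes, 8773 had no UMI. Rn45s was left out of library sizes and tests.

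For the inhibitors, the 8 times were summed per pretreatment and condition and fitted with edgeR's quasi-likelihood test (edgeR 4.0.16, R 4.3.3, TMM scaling, filterByExpr with a minimum count of 10), with the condition as a block. The stimulated against unstimulated comparisons used the wells of 60 min and later of 1 plate, with time as a factor, and the comparison without a stimulus used the 24 unstimulated wells, again with time; both kept genes that averaged 1 UMI or more in a well. P-values were adjusted by Benjamini-Hochberg over all genes tested, with a threshold of 0.05. Counting intervals were exact Poisson or conditional binomial at 95%, and the floor was 3 counts. The test script was tested on simulated data. Alternatives were DESeq2 1.42.0, no TMM scaling, other low-count filters, read counts in place of UMI counts, Rn45s kept, the Rn45s share as a covariate, no replicate block, and leaving out each condition or time; leaving out the well with most UMI, with its match on the other plate, was chosen after seeing the data. DMSO, dCA and BRD-6989 wells share stimulus and time labels by design, which is where the pairing comes from.

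The 9 members, the gene lists and the markers were chosen with earlier results of these data known. All members are described. From each list up to 3 genes per direction and inhibitor are named, those with the largest log2 change past the threshold, and for each member averaging 50 CPM or more the 5 most like genes, leaving out mitochondrial, predicted and Riken-named genes. A gene that this rule would name is not reported here. Sequences and positions come from RefSeq tables of build GRCm38.p6.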

Additional observations from a re-analysis of the deposited data

Results flagged for a closer look

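Among 56 sets of 5 late wells (1 pretreatment and stimulus, mean of at least 5 UMI for a member), 2 held a well far from the others, by a criterion that chance meets in about 1 of 20 sets. Ptgs2 in the 5 BRD-6989 wells with Pam3cys measured 379 CPM at 180 min (18 UMI), while the others lay between 0 and 70.2; the gap was 0.815 of the range, against a critical value of 0.71. Sod2 in the 5 DMSO wells with Pam3cys measured 728 CPM at 180 min (26 UMI), while the others lay between 28.6 and 183, a gap of 0.78 of the range. Both wells are the latest of their time course, so the time of collection differs between the wells of each set.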

How the results depend on the processing

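Depth limits these data: 4 members could not be tested over the conditions, and 1 UMI in a median well is 25.3 CPM. The dCA falls of Irg1 and Ptgs1 and the rise of Irg1 with time kept their calls under every alternative that tested them; calls lost elsewhere stand beside their results.

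Counts of called genes moved as follows. Without the low-count filter 463 genes had a time slope (213 in the reported fit), and the mean of the stimuli gave 54 (DMSO), 72 (dCA) and 50 (BRD-6989) where 31, 28 and 31 are reported, while 1 gene passed for the BRD-6989 effect on the response (0 reported). With read counts these were 400 (slope), 115, 131 and 95, and 36 for BRD-6989 without a stimulus (62 reported). With all stimuli as 1 group, chosen after seeing the data, the stimuli gave 10, 4 and 9. DESeq2 gave 88 (dCA) and 96 (BRD-6989) without a stimulus, against 53 and 62. Over the 12 conditions the stricter filter gave 651 and 679, the Rn45s covariate 601 and 194, and, for BRD-6989, late wells alone 774, against 1021 and 1197; without a stimulus that covariate gave 26 for BRD-6989. Leaving out 1 time gave 14 to 27 for the stimuli in dCA (14 without 180 min, 17 without 120 min), 15 to 48 for the contrast of stimuli in DMSO (37 reported; 15 without 180 min, 16 without 150 min) and 35 to 57 for dCA without a stimulus (35 without 180 min). The share of calls that were higher moved with scaling: 54.8% to 41.2% without TMM for dCA over the conditions, and with DESeq2 84.9% to 67% and 71% to 58.3% without a stimulus (61.3% without TMM for BRD-6989), 77.4% to 88.1% (BRD-6989) and 71.4% to 83.3% (dCA) for the stimuli, and 89.2% to 77.1% for the contrast of stimuli.

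Without the replicate block, which pairs wells by condition or time, the BRD-6989 call of Irg1 was lost (-1.02), as was the mean response of Irg1 in DMSO (2.37), and Ptgs1 without a stimulus passed for dCA. Signs that turned belonged to differences that did not pass. Ptgs2 over the mean of the stimuli in BRD-6989 was -0.097 and became 0.020 with DESeq2, 0.68 with reads, 1e-04 without the replicate block and 0.94 with stimuli as 1 group. The late MDP wells had no Ptgs2 UMI there, so this value is not a measured response. In counts, the late stimulated BRD-6989 wells gave 2.34 times (1.29 to 4.73) the late unstimulated level. The intervals of MDP, Poly(I:C) and TDB lay below 1. Sod2 in the contrast of stimuli (0.042) became -0.010 with DESeq2, -0.045 without TMM, -0.024 with the stricter filter, -0.019 with the Rn45s covariate and -0.074 without the block; Ptgs1 there (0.29) became -0.61 with reads and -0.065 with that covariate. Ptgs2 with dCA over the conditions (0.15) became -0.074 with reads and -0.14 in late wells, and Sod2 with BRD-6989 (0.068) became -0.048 with reads and -0.0075 with the covariate. With reads Gch1 became -0.19 for the BRD-6989 effect on the response and -0.0071 for BRD-6989 without a stimulus; Sod2 there became 0.069 without the block. The cause was not tested.

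Leaving out 1 time or condition gave these ranges: for the dCA effect on the response, Sod2 -0.35 to 2.12; for the BRD-6989 effect, Gch1 -0.31 to 1.32, Irg1 -1.64 to 2.84 and Sod2 -1.24 to 0.64; for the stimuli in BRD-6989, Ptgs2 -0.49 to 0.38; for the contrast of stimuli, Sod2 -0.34 to 0.46; without a stimulus, Gch1 -0.61 to 0.15 (dCA) and -0.11 to 1.08 (BRD-6989), Sod2 -1.27 to 0.067 (BRD-6989); over the conditions, Ptgs2 -0.13 to 0.35 (dCA) and Sod2 -0.017 to 0.17 (BRD-6989).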

Other observations

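Poly(I:C) and LPS raised Irg1 to like levels in DMSO, and the pair was compared under the inhibitors after their values had been seen. The log2 effect of dCA on Irg1 with Poly(I:C) minus its effect with LPS was -2.34 ± 1.05 (SE; edgeR, unadjusted p = 0.02784, adjusted p = 0.6344). For BRD-6989 the same difference was -1.93 ± 0.95 (edgeR, unadjusted p = 0.04273, adjusted p = 0.9248). No gene of 5771 passed this test for either inhibitor, so a difference between the 2 stimuli did not hold after adjustment.

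Sod2 over the mean of the 11 stimuli in the dCA plate was 1.51 ± 0.60 (edgeR, adjusted p = 0.3795) and passed without the wells of 60 min (3.49, adjusted p = 0.005212); the unstimulated dCA well of 60 min measured 233 CPM, and the other 4 late ones 41.3, 0, 0 and 44.2.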
